A study of Saccharomyces cerevisiae with 58 samples.

Results

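The first hour of the time courses was examined as a comparison of strains: the arrays taken 30, 38, 46 and 54 min after elutriation, from a B-cyclin mutant of budding yeast and from wild type. The rule takes every array at those times, which gave 8 of the 58 arrays, 4 of each strain. Elutriation sorts cells by size, and the small unbudded cells collected here were in G1, per the labels. The wild type is BF264-15DU MATa with the allele bar1. The mutant has the same BF264-15DU MATa background, and its label does not list bar1. In it CLB1 is replaced by URA3 (clb1::URA3), CLB2 by LEU2 (clb2::LEU2), CLB3 by TRP1 (clb3::TRP1), CLB4 by HIS2 (clb4::HIS2), CLB5 by ARG4 (clb5::ARG4) and CLB6 by APE1 (clb6::APE1), and it also carries a GAL1-CLB1:LEU2 construct, in which the galactose-regulated GAL1 promoter is joined to CLB1. Both strains were grown at 30 °C in dextrose medium (YEPDextrose) with 1 M sorbitol. The conditions in which the mutant was kept before elutriation are not given in the sources used here.

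The replicate is the culture, with 2 cultures per strain and 2 arrays of each in this window. The grid of 30 and 46 min holds culture 1 of wild type and culture 2 of the mutant. The grid of 38 and 54 min holds culture 2 of wild type and culture 1 of the mutant, so each time has 1 array per strain. All levels are log2 of the deposited probe set intensity, and all differences are mutant minus wild type on that scale, with the standard error (SE) of the fit and n = 2 cultures per strain.

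In budding yeast, a G1 cell commits to a new cycle at Start, when the cyclin Cln3 with the kinase Cdc28 relieves Whi5 from the transcription factors SBF and MBF. These then switch on the G1 cyclins CLN1 and CLN2 and the genes of budding and DNA replication. The B-type cyclins act later: Clb5 and Clb6 start replication, Clb3 and Clb4 serve S phase and the spindle, and Clb1 and Clb2 drive mitosis. A cell in early G1 holds Clb kinase low through destruction of the mitotic cyclins and through the inhibitor Sic1, so the comparison asks what sets the strains apart at a stage at which B-cyclin activity is normally low.

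The 8 arrays shared a common scale, with median levels of the genes between 10.85 and 10.91. The background level of an array was set as the 95th percentile of its 1746 probe sets for genes outside the S. cerevisiae annotation. It lay between 8.40 and 9.02 on 7 arrays and at 9.81 on the mutant array at 46 min, which stood apart: 4103 of 5449 genes exceeded the background there, against 4860 to 5158 on the others. The 3' minus 5' difference of the ACT1 control probe sets, a sign of RNA quality, ran from 0.30 to 0.72 in wild type and from 0.39 to 0.58 in the mutant, highest on the 30 min array of each strain.

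The window lay before the peak of the G1/S wave in both strains. The mean level of 33 G1/S genes of replication and repair (B cyclins left out) was 9.78 and 9.86 in wild-type culture 1, 9.78 and 9.99 in wild-type culture 2, 9.55 and 10.22 in mutant culture 1, and 9.54 and 9.96 in mutant culture 2. The same genes peaked at 11.86, 11.79, 12.02 and 11.95 in those cultures, at 94 or 102 min. Within the window they rose in every culture, and more in each mutant culture than in either wild-type culture. For 23 genes of the CLB2 cluster, which mark G2 and mitosis, the means were 9.37 to 9.65, beside wild-type peaks of 11.59.

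Over all genes, each of the 4 mutant arrays correlated best with a wild-type array taken later. The mutant array at 30 min was closest to wild type at 38 min (Pearson r = 0.973, against 0.970 at equal time). Mutant 38 min was closest to wild type 46 min (0.980 against 0.936), mutant 46 min to wild type 54 min (0.961 against 0.960), and mutant 54 min to wild type 70 min (0.979 against 0.957). The margins at 30 and 46 min were small and have no measure of spread. In the other direction, wild type at 30 min was closest to the mutant at equal time (0.970), wild type at 38 min to the mutant at 30 min (0.973), and wild type at 46 and at 54 min to the mutant at 38 min (0.980 and 0.970). These are descriptions across genes, which are not independent, and all values share the arrays' common scale. The part of a different pace of recovery in the differences below was not tested.

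The fit called 13 of 5449 genes (0.239%) different between strains, 9 higher in the mutant (0.165%) and 4 lower (0.0734%), by limma at a Benjamini-Hochberg adjusted p under 0.05. At an unadjusted p under 0.05 there were 626. The 13 are 3 B-cyclin genes, the BAR1 locus, a neighbour of CLB4, GAL1 and GAL10, and 4 genes of transport, metabolism or repair (PHO84, STR3, QDR2 and UBC13). The 4 mutant arrays lay beyond all 4 wild-type arrays for 235 genes (4.31%), 124 higher (2.28%) and 111 lower (2.04%). None of the 1746 background probe sets was called in a joint fit, where 7 had an unadjusted p under 0.05. That joint fit called 9 of the 5449 genes (0.165%). These probe sets define the background level, so they give no rate of false calls for genes above it. The 13 calls of the main fit depended on the cultures used. No call was left without wild-type culture 1 or without wild-type culture 2, and part of the calls stayed without either mutant culture. Such fits, here and below, hold a single culture of one strain and have no sampling grid term. They therefore also compare the strains at partly unlike times.

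**Figure D1:**
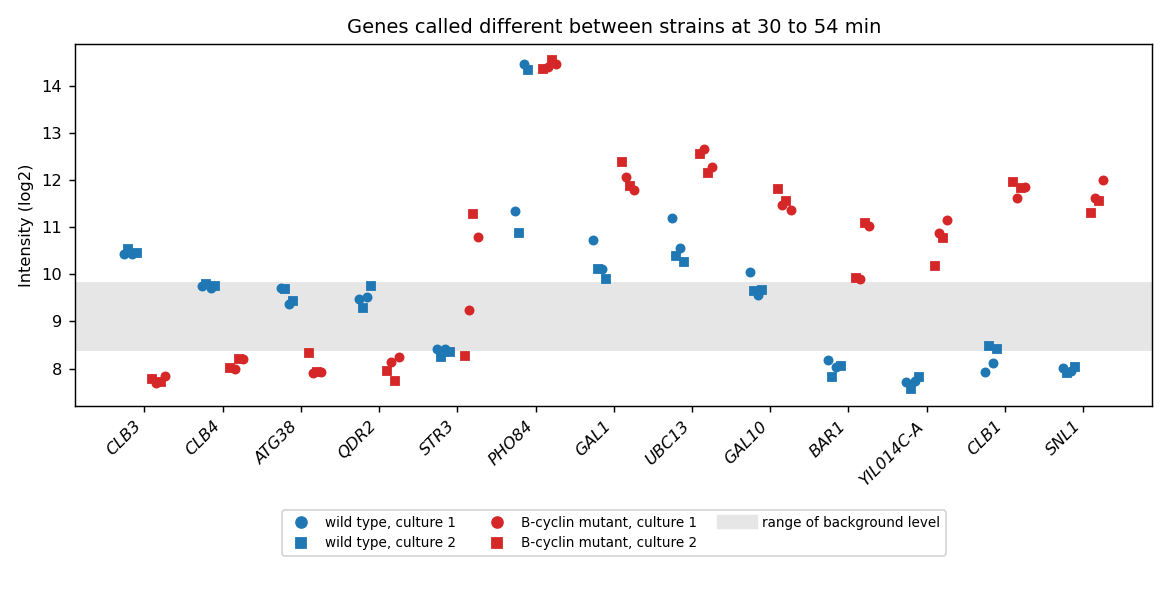
Log2 intensity (vertical axis) of the 13 genes called between strains, with 1 point per array, blue for wild type and red for the mutant, circles for culture 1 and squares for culture 2, placed from left to right by time within each strain. The grey band spans the background levels of the 8 arrays, from 8.40 to 9.81. CLB3 and CLB4 lay low and CLB1, SNL1 and YIL014C-A high in all mutant arrays, while PHO84 differed only in the earlier and STR3 mainly in the later arrays.

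Of the 6 B-cyclin genes disrupted in the mutant, CLB3 and CLB4 were called lower there and CLB1 was called higher, while CLB2, CLB5 and CLB6 gave no call. CLB3, a B cyclin of S phase and the spindle, read 10.42, 10.53, 10.42 and 10.45 in wild type at 30, 38, 46 and 54 min, and 7.79, 7.70, 7.72 and 7.84 in the mutant. The difference was -2.69 (SE 0.17, adjusted p = 0.00303), and since the mutant was not well above background on any array, this is at least 2.77-fold lower. CLB4, its paralog, read 9.75, 9.78, 9.71 and 9.76 in wild type and 8.02, 7.98, 8.19 and 8.19 in the mutant, at least 1.70-fold lower (difference -1.65, SE 0.17, adjusted p = 0.0251). Wild-type cells thus held CLB3 and CLB4 signal above background on every array of the window, and the mutant on none.

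The mitotic cyclin CLB1 differed the other way. It read 7.93, 8.48, 8.11 and 8.41 in wild type, above background on 1 of 4 arrays, and 11.95, 11.62, 11.83 and 11.85 in the mutant (difference 3.59, SE 0.20, adjusted p = 0.00237). With the 3 low arrays set to their background levels it was 7.94-fold higher. The mutant label carries both clb1::URA3 and the GAL1-CLB1:LEU2 construct. Wild-type CLB1 reached its highest later level, 12.06, at 134 min. CLB2, the other main mitotic cyclin, was below background on all 8 arrays (7.91 to 8.77) and so gave no test of its deletion in this window.

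The S-phase cyclin CLB5 read 9.80, 9.74, 9.74 and 9.49 in wild type and 10.65, 11.09, 10.36 and 10.96 in the mutant, although clb5::ARG4 is in the label. The groups did not overlap, but the difference of 1.07 (SE 0.21, adjusted p = 0.202) was not called. CLB6, which lies next to CLB1, had a difference of 0.14 (adjusted p = 0.833). Positions of probes within these genes were not analysed here, so a probe set outside the replaced part would check nothing.

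Of the genes used as disruption markers, 4 had all mutant arrays above all wild-type arrays, beside 2.28% of all genes, without passing the test. LEU2, of leucine synthesis, had a difference of 1.33 (SE 0.18, adjusted p = 0.0711), URA3, of uracil synthesis, 1.05 (adjusted p = 0.159), ARG4, of arginine synthesis, 0.97 (adjusted p = 0.159) and HIS2, of histidine synthesis, 0.73 (adjusted p = 0.255). APE1, a vacuolar aminopeptidase, read 12.92, 13.09, 11.996 and 11.55 in wild type and 12.67, 12.15, 10.89 and 9.56 in the mutant, a difference of -1.07 (adjusted p = 0.227) with overlapping groups. TRP1 was not analysed here.

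At the BAR1 locus, 3 neighbouring genes were called higher in the mutant. BAR1, the protease that degrades alpha factor and the gene of the bar1 allele in the wild-type label, read 8.18, 7.82, 8.03 and 8.06 in wild type and 9.92, 9.89, 11.09 and 11.03 in the mutant, at least 3.19-fold higher (difference 2.46, SE 0.17, adjusted p = 0.00343). SNL1, on one side of it in the annotation, encodes a membrane protein of the endoplasmic reticulum and nuclear envelope. It read 8.01, 7.90, 7.95 and 8.04 in wild type and 11.29, 11.61, 11.55 and 11.99 in the mutant, at least 6.97-fold higher and the largest difference of the 13 (3.64, SE 0.18, adjusted p = 0.00237). YIL014C-A, an uncharacterised reading frame on the other side, read 7.71, 7.56, 7.74 and 7.83 against 10.18, 10.88, 10.78 and 11.15, at least 3.83-fold higher (difference 3.04, SE 0.20, adjusted p = 0.00324). In wild type all 3 were below background on every array, so the low signal spans BAR1 and both neighbours.

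VID28, a subunit of the GID ubiquitin ligase that lies beyond SNL1, read 11.63, 11.53, 11.24 and 11.34 in wild type and 11.22, 10.35, 9.86 and 9.47 in the mutant. The groups did not overlap, and the difference of -1.21 (SE 0.21, adjusted p = 0.142) was not called here but was at later times (-1.34, limma adjusted p = 0.00109). On the far side of YIL014C-A, MNT3 differed by -0.09 (adjusted p = 0.906).

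Beside CLB4, ATG38 was called lower. ATG38, a subunit of the phosphatidylinositol 3-kinase complex of autophagy, read 9.70, 9.69, 9.36 and 9.43 in wild type and 8.32, 7.90, 7.93 and 7.92 in the mutant, at least 1.48-fold lower (difference -1.53, SE 0.17, adjusted p = 0.0405). PNP1, the purine nucleoside phosphorylase on the other side of CLB4, differed by -0.61 (adjusted p = 0.298) with no overlap. The next gene beyond ATG38, TUB4, differed by -0.32 (adjusted p = 0.577). The genes on either side of CLB3, CMR1 and MSH5, differed by -0.55 and 0.22 and neither was called (adjusted p = 0.318 and 0.677).

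A further run of neighbours was noticed on chromosome III after the values were seen, so it is described without a test. The 12 measured genes from MAK32 to FEN2 all had negative differences, from -1.07 to -0.16 with a median of -0.74, and the arrays did not overlap for 9 of them, beside 2.04% of all genes. None was called in the first hour (adjusted p = 0.118 to 0.793), and 9 had an unadjusted p under 0.05, beside 626 of all 5449 genes. YCR023C, a transporter-family protein of unknown function, had the largest difference (-1.07, SE 0.17), followed by MAK32 (-0.98), which is needed to keep the killer virus of yeast stable, SLM5 (-0.95), the mitochondrial asparaginyl-tRNA synthetase, and RHB1 (-0.92), a small GTPase. PET18 (-0.88), named for a respiratory phenotype, was lower on all mutant arrays too. From 62 min on, 11 of the 12 were called lower, with differences between -1.38 and -0.42, where 841 of all genes (15.4%) were called, 366 (6.72%) of them lower. PMP1, a regulator of the plasma membrane proton pump, was the exception (-0.41, limma adjusted p = 0.0532). The 16 genes flanking the run had a median of -0.00 in the first hour, and none was called lower later. Their first-hour differences ran from -0.89 to 0.26, so some lay as low as genes of the run. The ends of the run were set from these same values, so its contrast with the flanks is no separate evidence.

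**Figure D2:**
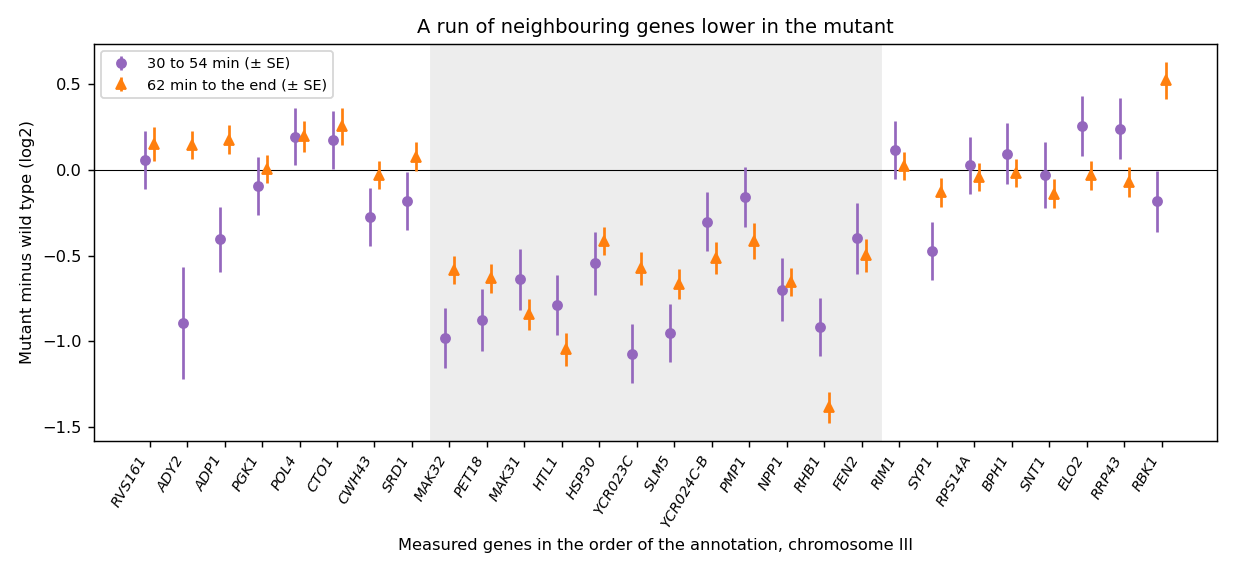
Mutant minus wild type (log2) for consecutive measured genes of chromosome III, for 30 to 54 min (circles) and from 62 min to the end (triangles), with bars of ± 1 SE from limma. The shaded run of 12 genes from MAK32 to FEN2 lay below 0 in both windows, and the 16 flanking genes had a first-hour median of -0.00.

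The galactose genes were the one metabolic pathway with 2 called members. GAL1 (galactokinase), GAL7 (uridyl transferase) and GAL10 (epimerase) encode the enzymes of galactose use, GAL2 the permease, and Gal3 and Gal80 control their activator Gal4; in yeast, glucose represses the pathway. GAL1 read 10.73, 10.12, 10.10 and 9.91 in wild type and 12.38, 12.07, 11.87 and 11.79 in the mutant, 3.51-fold higher (difference 1.81, SE 0.17, adjusted p = 0.019). GAL10 read 10.05, 9.64, 9.55 and 9.67 against 11.80, 11.46, 11.55 and 11.36, also 3.51-fold higher (1.81, SE 0.17, adjusted p = 0.019). Both strains had their highest GAL1 and GAL10 levels of the window at 30 min.

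GAL7, on the other side of GAL10, had a difference of 1.17 (SE 0.17, adjusted p = 0.0909) and GAL2, on another chromosome, 1.10 (SE 0.17, adjusted p = 0.114). Neither passed the test, and for both the 4 mutant arrays lay above the 4 wild-type arrays. The regulators GAL3 and GAL80 differed by 0.21 and 0.06. PGM2 and GCY1, which also belong to other responses, had differences of -0.66 and -0.62 (adjusted p = 0.315 and 0.558). Over the 8 measured genes of the list the median was 0.66, beside -0.01 for all genes. At later times the median was 0.73, with 6 of 8 called higher, beside 8.72% of all genes.

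UBC13, the ubiquitin-conjugating enzyme that works with Mms2 in post-replication repair, read 11.19, 10.39, 10.55 and 10.26 in wild type and 12.56, 12.66, 12.14 and 12.28 in the mutant. It was 3.51-fold higher (difference 1.81, SE 0.21, adjusted p = 0.0416), with no overlap. The other 20 measured genes of DNA damage and post-replication repair held no called gene. QDR2, a plasma membrane transporter of the multidrug family, read 9.47, 9.27, 9.53 and 9.76 in wild type and 7.95, 8.13, 7.74 and 8.24 in the mutant. With the mutant below background on all 4 arrays it was at least 1.44-fold lower (difference -1.49, SE 0.18, adjusted p = 0.0416). It was the only called member of 20 genes of multidrug transport.

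PHO84 was called higher through the first array of each culture alone. It encodes the high-affinity phosphate transporter of the plasma membrane, which Pho4 switches on when phosphate is short. Wild type read 11.34 at 30 min, 10.87 at 38 min, 14.45 at 46 min and 14.34 at 54 min, while the mutant read 14.35, 14.40, 14.53 and 14.46. The mutant was thus at its plateau on every array and wild type on the later array of each culture only. The difference over the window was 1.68 (SE 0.18, adjusted p = 0.0265), with 3.27 on the first arrays (adjusted p = 0.0326) and 0.10 on the second (adjusted p = 0.884). The change over 16 min itself differed between the strains by -3.17 (SE 0.25, adjusted p = 0.0146). Without the 38 min arrays the difference was 0.83, and it was then not called (adjusted p = 0.556).

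The other phosphate genes did not pass the test. Among 22 measured members 16 had positive differences, with a median of 0.36 beside -0.01 for all genes, and medians between 0.30 and 0.45 at each of the 4 times. The next largest differences, picked after the values were seen, were in PHO11, an acid phosphatase (1.42, SE 0.19, adjusted p = 0.07), PHO89, a sodium-phosphate symporter (1.09, adjusted p = 0.23), and VTC3, a subunit of the vacuolar polyphosphate polymerase (1.03, adjusted p = 0.14). At later times the list's median was -0.12, with 5 of 22 members called lower, beside 6.72% of all genes, and 0 higher.

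The genes of sulfate assimilation and methionine synthesis differed in their course within the window. STR3, which makes homocysteine from cystathionine, stayed between 8.25 and 8.42 in wild type, below background, and read 8.26, 9.25, 11.27 and 10.78 in the mutant. It was called higher, at least 2.12-fold (difference 1.53, SE 0.18, adjusted p = 0.0416), and this came from the second array of each culture (2.64, adjusted p = 0.014, against 0.43, adjusted p = 0.795, on the first). Without the 46 min arrays the difference was 0.78 and was not called (adjusted p = 0.669). In mutant culture 2 it was back at 8.38 by 62 min.

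Of the 5 genes (0.0918%) whose change over 16 min differed between strains, 3 act in sulfur metabolism or on methionine. MET17, which builds sulfide into homocysteine, read 11.45, 11.36, 10.47 and 10.54 in wild type and 10.47, 11.29, 13.87 and 13.88 in the mutant (difference of the changes 3.89, SE 0.30, adjusted p = 0.0146). MXR1, a methionine sulfoxide reductase, read 10.9975, 10.82, 10.26 and 10.54 against 10.45, 11.02, 12.98 and 13.24 (2.88, SE 0.28, adjusted p = 0.0255). MET14, the adenylylsulfate kinase, read 10.40, 10.85, 9.996 and 10.16 against 10.31, 10.17, 12.12 and 12.06 (2.40, SE 0.25, adjusted p = 0.0305). In each of the 3, both mutant cultures were high on their second array only and wild type was lower on its second array than on its first.

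Over all 28 measured sulfur genes the median difference was -0.32 at 30 min, 0.06 at 38 min, 0.91 at 46 min and 1.02 at 54 min, while that of all genes stayed between -0.07 and 0.05. 26 of the 28 had a positive difference over the window, but only STR3 was called. MET17 in mutant culture 2 read 13.34 at 62 min and 11.16 at 78 min, and in mutant culture 1 it read 12.65 at 70 min and 10.13 at 86 min. It was high again later, up to 14.01 at 214 min, and over the later times it was called higher in the mutant (0.75, limma adjusted p = 0.00518).

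The remaining gene of the 5, ARG1, the argininosuccinate synthase of arginine synthesis, began lower in the mutant. It read 13.01, 11.59, 11.58 and 10.58 in wild type and 9.71, 10.12, 11.002 and 11.78 in the mutant, a difference of the changes of 2.70 (SE 0.24, adjusted p = 0.0181). Its difference over the window, -1.04, was not called (adjusted p = 0.391). The 55 measured genes of amino acid biosynthesis had a median of -0.02 and none was called. The 5 calls on the change over 16 min depended on the wild-type cultures. They were lost when either wild-type culture was left out, and kept when either mutant culture was left out.

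**Figure D3:**
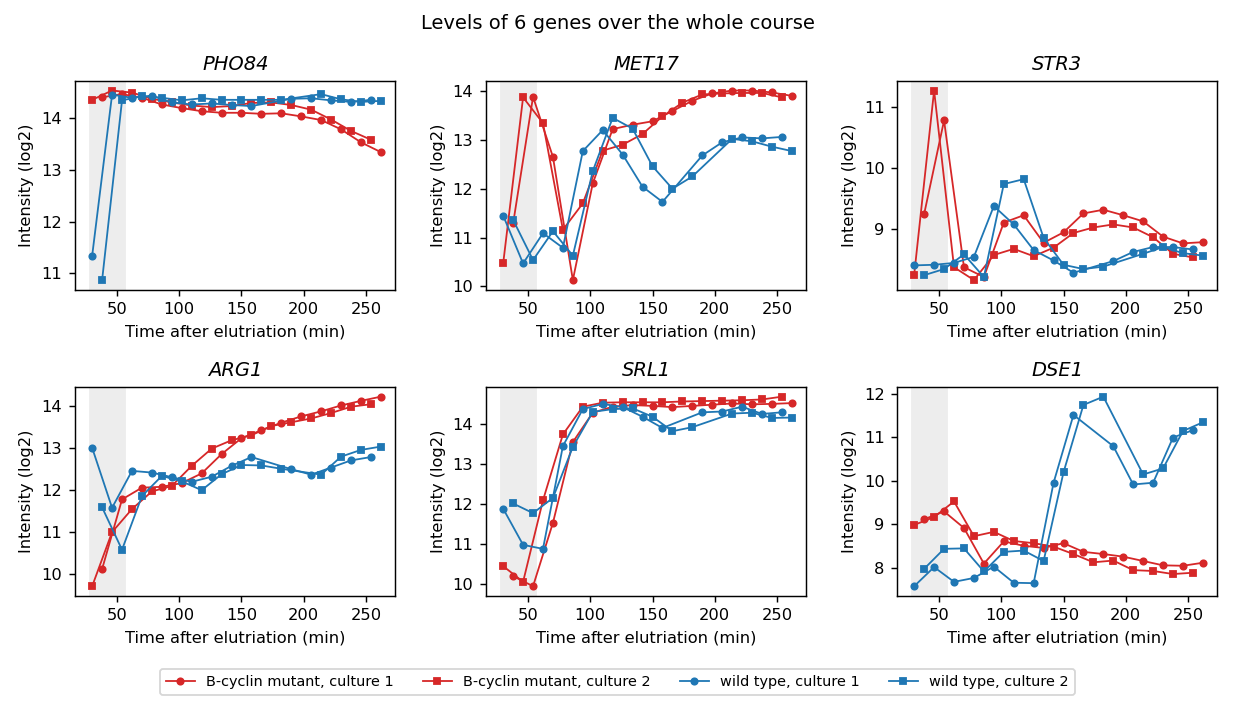
Log2 intensity of PHO84, MET17, STR3, ARG1, SRL1 and DSE1 against minutes after elutriation over the whole course, blue for wild type and red for the mutant, 1 line per culture, with the first hour shaded. Wild-type PHO84 reached 14.45 and 14.34 on the second arrays, and the mutant peak of STR3 (11.27 and 10.78) and MET17 (13.87 and 13.88) fell on the second arrays.

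Lists of growth and stress genes had first-hour differences spread over most of their members, and no single gene in these lists was called. Ribosome biogenesis factors, which process ribosomal RNA, are high in growing cells. Their mean in wild type was 10.99 at 30 min, 11.17 at 38 min, 12.50 at 46 min and 12.77 at 54 min, and in the mutant 11.41, 12.33, 12.60 and 12.99. Of 50 measured members 49 had a positive difference, beside 2665 of all 5449 genes, and the median was 0.50. An unadjusted p under 0.05 was found for 31, beside 626 of all genes. The median was largest at 38 min (1.15), the array pair with the lowest equal-time correlation, and 0.13 at 46 min. UTP4, of the small subunit processome, differed by 0.90 (SE 0.17, adjusted p = 0.161) and DBP3, an RNA helicase, by 0.87 (adjusted p = 0.203).

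The general stress genes, driven in yeast by Msn2 and Msn4, took the opposite course. Their mean was 13.42, 13.45, 12.55 and 12.07 in wild type and 13.39, 12.73, 12.02 and 10.61 in the mutant. Of 29 measured members 27 had a negative difference and 18 an unadjusted p under 0.05, beside 626 of all 5449 genes. The median of the list was -0.74, and it went from 0.02 at 30 min to -1.44 at 54 min. PHM7, a membrane protein, differed by -1.64 (SE 0.29, adjusted p = 0.144) and TKL2, a transketolase, by -1.37 (adjusted p = 0.244). The strains therefore lay together at 30 min and apart at 54 min in these genes, while in ribosome biogenesis the differences were larger on the first array of each culture than on the second.

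**Figure D4:**
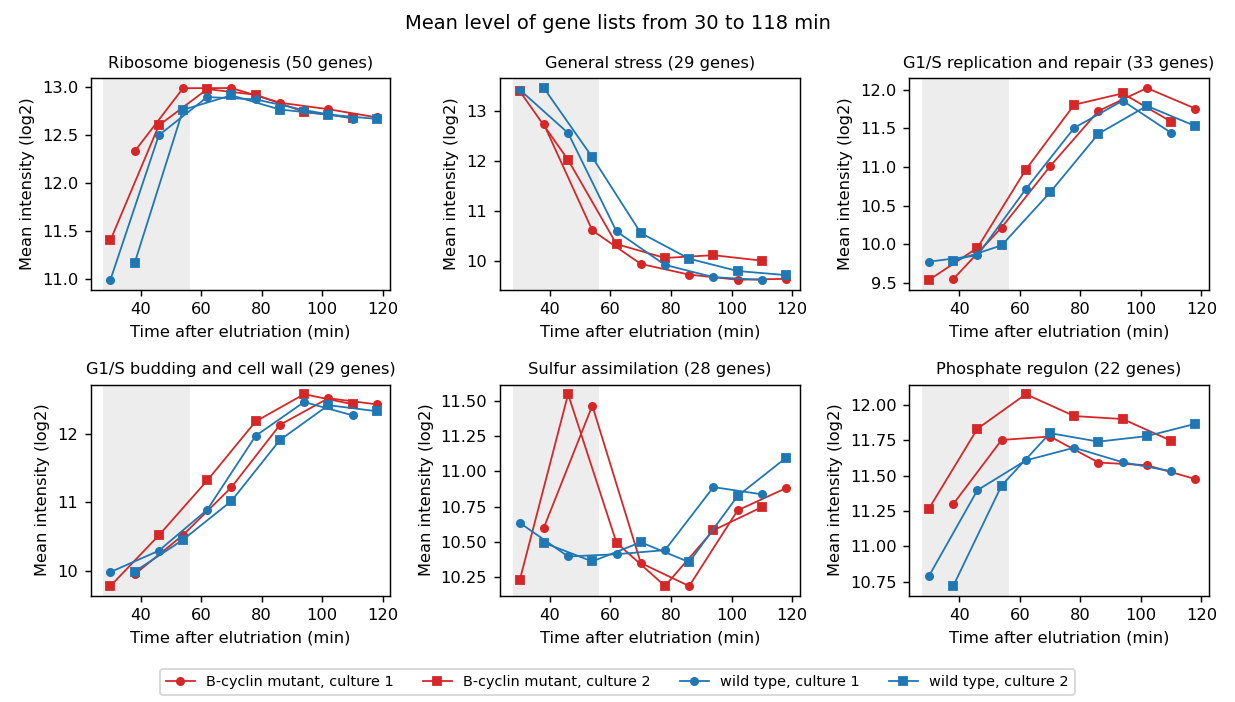
Mean log2 intensity of 6 gene lists against minutes after elutriation, from 30 to 118 min, 1 line per culture, blue for wild type and red for the mutant, with the first hour shaded. Ribosome biogenesis started at 10.99 to 12.33 and general stress genes at 12.73 to 13.45, the sulfur list was high on the second mutant arrays, and both G1/S lists were still far below their peaks.

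Many other lists also had negative medians, and 5 of them are described here. Among those not described, the 26 iron regulon genes had a median of -0.27. The 19 genes of trehalose and glycogen had a median of -0.41. Of these 10 had an unadjusted p under 0.05, beside 626 of all 5449 genes. The list was led by TSL1 (-0.996, adjusted p = 0.174) and TPS1 (-0.85, adjusted p = 0.263), both of the trehalose synthase complex. All 35 measured proteasome genes had negative differences over the window (median -0.27), though their median was 0.14 at 30 min. Only 2 of them had an unadjusted p under 0.05, a smaller share than among all genes. The 23 chaperone genes had a median of -0.26, with HSP82 at -0.96 (adjusted p = 0.282). The TCA cycle genes had a median of -0.28 over 16 genes and autophagy genes -0.17 over 30. The 38 genes of respiration and ATP synthase had a median of 0.06, with 25 positive. None of these was called.

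Of the 27 gluconeogenic and glucose-repressed genes (median -0.54), 0 were called and 13 had an unadjusted p under 0.05, beside 626 of all 5449. In this list a single culture set the largest value. ADH2, the alcohol dehydrogenase that consumes ethanol, read 14.08 and 13.40 in wild-type culture 2, but 9.77 and 9.43 in wild-type culture 1 and between 9.23 and 9.69 in the mutant. Its difference of -2.14 (SE 0.80, adjusted p = 0.391) was the second largest negative value of all genes and was not called. ALD4, the mitochondrial aldehyde dehydrogenase, differed by -1.33 (adjusted p = 0.263), with the mutant at 54 min lowest at 11.51. STL1, a glycerol symporter of the osmotic list, read 14.01, 14.24, 10.23 and 11.29 against 13.22, 11.05, 9.11 and 8.97 (-1.85, adjusted p = 0.223).

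Several other genes had no overlap between the arrays of the strains and large differences that did not pass the test. SRL1, a cell wall mannoprotein of the G1/S budding list, read 11.88, 12.01, 10.98 and 11.77 in wild type and 10.45, 10.20, 10.06 and 9.95 in the mutant (-1.50, SE 0.21, adjusted p = 0.075). DIC1, the mitochondrial dicarboxylate carrier, differed by -1.23 (SE 0.17, adjusted p = 0.0711), and SNZ1, of vitamin B6 synthesis, by -1.49 (SE 0.35, adjusted p = 0.255), where wild-type culture 2 read 11.46 and 12.40 and wild-type culture 1 10.37 and 10.66. The spermidine exporter TPO1 differed by -0.82 (adjusted p = 0.326) and SOR2, a sorbitol dehydrogenase homologue, by -0.91 (adjusted p = 0.174). On the high side were SCM4, a mitochondrial outer membrane protein (1.22, SE 0.21, adjusted p = 0.142), and KIN3, a protein kinase (1.14, SE 0.19, adjusted p = 0.135), whose neighbour ADE1, of purine synthesis, differed by 1.06 (adjusted p = 0.207).

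The regulators of Start showed no called difference. CLN3, the cyclin that opens Start, read 11.88, 11.31, 11.68 and 11.50 in wild type and 10.99, 10.95, 11.55 and 11.76 in the mutant (-0.28, SE 0.19, adjusted p = 0.642). WHI5, the repressor it acts on, differed by 0.04 (adjusted p = 0.961). The subunits of SBF and MBF differed by -0.26 (SWI4), 0.16 (SWI6) and 0.30 (MBP1), with adjusted p of 0.792, 0.84 and 0.586. With an SE of about 0.17 to 0.28, differences of this size could not be told from 0.

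The first targets of Start were at background in both strains. CLN2 was below background on all 8 arrays (8.20 to 9.09), and so were CLN1 (7.81 to 8.58), PCL1, a cyclin of the kinase Pho85 (7.41 to 8.26), and NRM1, an MBF co-repressor (8.02 to 8.58). FAR1, the Cdc28 inhibitor of the pheromone response, read 9.03, 9.17, 10.21 and 10.48 in wild type and 9.40, 10.20, 10.89 and 11.36 in the mutant, a difference of 0.74 (SE 0.19, adjusted p = 0.263), higher at 4 of 4 times. XBP1, a repressor induced by stress, differed by -0.80 (adjusted p = 0.309).

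Over the whole lists, the 20 Start regulators had a median of 0.06 with 0 called, 35 G1/S replication genes 0.04 and 29 G1/S budding genes 0.06, beside -0.01 for all genes. Both G1/S medians were negative at 30 min (-0.22 and -0.19) and positive at 54 min (0.28 and 0.14). RFA2, a subunit of the single-strand DNA binding protein, was lower on every mutant array (-0.68, SE 0.18, adjusted p = 0.279). The 8 histone genes had a median of -0.23, with HTA1 (-0.39) and HTA2 (-0.30) below wild type on all arrays and neither called (adjusted p = 0.486 and 0.573).

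Genes of the previous mitosis and of daughter cells gave a single call. Within the 25 measured CLB2 cluster genes only CLB1 was called, and the median was 0.01. SUR7 (-0.62, adjusted p = 0.326), of cortical membrane patches, and NDD1 (-0.29, adjusted p = 0.586), a mitotic transcription activator, both named after their values were seen, lay below wild type on all mutant arrays. Among 20 M/G1 and daughter genes the median was 0.17 with 0 called. DSE1, needed to separate daughter from mother, read 7.57, 7.97, 8.01 and 8.43 in wild type, below background throughout, and 8.98, 9.11, 9.16 and 9.29 in the mutant (fitted difference 1.14, SE 0.18, adjusted p = 0.114), which bounds the ratio at only at least 1.25-fold. DSE2, a wall-degrading enzyme of the same step, differed by 0.86 (adjusted p = 0.193). In both genes all mutant arrays lay above all wild-type arrays, while PIR3, a cell wall protein of the same list, lay below on all (-0.67, SE 0.17, adjusted p = 0.271).

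The strain differences of the first hour were then compared with those from 62 min on, over 48 arrays at times that both strains have. For 36 genes (0.661%) the difference changed, becoming more positive for 11 (0.202%) and more negative for 25 (0.459%). That count was 0 without wild-type culture 1, without wild-type culture 2 or without mutant culture 1 (415, 440 and 865 genes at an unadjusted p under 0.05), and 586 without mutant culture 2. With later times cut at 118 min it was 0 as well (574 at an unadjusted p under 0.05).

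Among those that became more negative, CLB2 went from -0.03 to -2.74 (change -2.72, SE 0.21, adjusted p = 0.0208) and CLB1 from 3.59 to 0.93 (-2.65, SE 0.19, adjusted p = 0.0161). Wild-type CLB2 reached 12.10 at 126 min, while the mutant stayed at or below 8.66 after the first hour. DSE1 went from 1.14, a fitted value against wild-type signal below background, to -1.25 and DSE2 from 0.86 to -1.70 (adjusted p = 0.0161 for both), so that these daughter genes, with all mutant arrays above wild type in the first hour, were called lower in the mutant later. FAR1 (0.74 to -1.80, adjusted p = 0.0161) and the a-factor gene MFA2 (0.15 to -2.33, adjusted p = 0.0263), whose first-hour arrays overlapped between strains, also became more negative. In all, 6 of 20 M/G1 and daughter genes were called in this direction, beside 0.459% of all genes.

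The 5 largest changes in the positive direction were in HXT2, HSP42, EMI2, TSL1 and HXK1. HXT2, a high-affinity glucose transporter, went from -0.50 to 2.18 (change 2.68, SE 0.17, adjusted p = 0.0161) and HXK1, a hexokinase that glucose represses, from -0.58 to 1.21 (adjusted p = 0.0266). The small heat shock protein HSP42 went from -1.10 to 1.41 (2.51, SE 0.31, adjusted p = 0.0444), TSL1 from -0.996 to 1.09 (adjusted p = 0.0263) and EMI2, a glucokinase paralog, from -1.14 to 0.996 (adjusted p = 0.0263). SRL1 (-1.50 to 0.27) and DIC1 (-1.23 to 0.41) also changed. Of the 29 general stress genes 1 was called in this direction, HSP42, and 1 in the other, YGP1, a secreted glycoprotein named here after its values were seen (0.02 to -1.95, adjusted p = 0.023). No chaperone gene and 1 hexose transport gene, HXT2, was called, beside 0.661% of all genes in both directions. The median of the general stress genes was -0.74 in the first hour and 0.50 later, and that of ribosome biogenesis 0.50 and -0.12. CLB1, CLB3, CLB4, SNL1, BAR1, YIL014C-A, GAL1, GAL10, UBC13, QDR2 and ATG38 were called in the same direction in both windows. For CLB1 the later difference, 0.93, was smaller but still called (limma adjusted p = 0.00295).

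**Figure D5:**
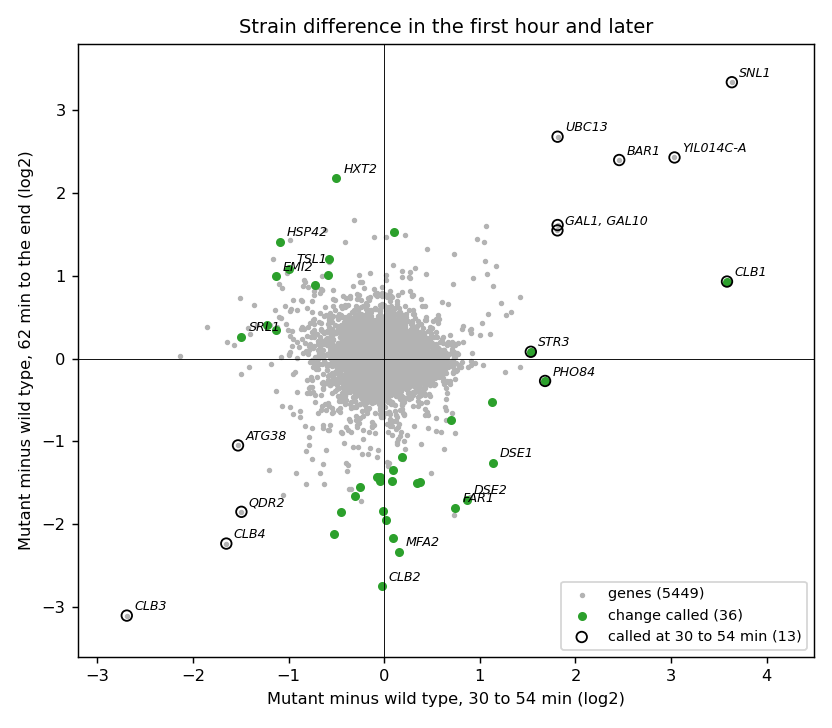
Mutant minus wild type (log2) at 30 to 54 min (horizontal) against that from 62 min to the end (vertical), 1 point per gene (5449), green where the change between windows was called (36) and ringed where the first-hour difference was called (13). SNL1, UBC13 and GAL1 lay far from 0 on both axes, CLB1 lay at 3.59 and 0.93, and PHO84 and STR3 lay near 0 on the vertical axis.

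The labelled cell type was checked against its markers. Among 7 a-specific genes, MFA1, MFA2, STE2, STE6 and AGA2 were above background on all 8 arrays. BAR1 was above background on 0 wild-type arrays and on 4 mutant arrays, and the level of ASG7 is not given here. Of 5 alpha-specific genes, the alpha-factor gene MF(ALPHA)1 and the a-factor receptor gene STE3 were below background on all 8. The other 3 were not: SAG1 was above it on all 8, AFB1 on 4 wild-type and 3 mutant arrays, and MF(ALPHA)2 on 2 and 3. The a-specific median was 0.09 and only BAR1 was called. None of 22 genes of meiosis and sporulation was called (median 0.02), and their mean level lay between 8.65 and 8.95 on the 8 arrays, highest on the mutant array at 46 min, which also had the highest background.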

How the data were processed

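RNA of 58 samples, each 1 time of 1 culture, was hybridised to Affymetrix arrays, and 8 of them form the first-hour comparison. The series design counts 2 biological replicates per strain. Per the submitters' processing notes, affy 1.8.1 made the linear probe set intensities that the authors deposited, which run from 86.1 to 33787. The methods of background correction and scaling are not given in the sources used here. Of 10928 probe sets, 5498 were named to 5449 S. cerevisiae genes through the platform's gene table, the brightest was kept for each of 47 genes with several, and 12 symbols were updated. Levels are log2(intensity) with no added constant.

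Each culture's 2 arrays were averaged, and the 4 means were fitted with limma 3.58.1 in R 4.3.3 (lmFit, eBayes) with strain and sampling grid, leaving 1 residual degree of freedom plus the prior shared over genes. p-values were Benjamini-Hochberg adjusted over all 5449 genes and called under 0.05. The same fit was run on later times minus first hour, and on second minus first array. The number of cultures, 2 per strain, limits the precision. For a gene below background on all arrays of a strain, the fold is a bound against the background level. In simulated data for the first-hour comparison (5449 genes), 66 genes each were changed by 1, 2 and 3 log2 units. Of those changed by 1 unit 45 were recovered, with 14 false calls in all. So many changed genes loosen the adjusted threshold, so this recovery does not carry over to the real data, where 13 genes were called. The smallest called difference there was that of QDR2 (-1.49).

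Named genes were those of the strain labels and neighbours of the called ones, the called genes and the largest non-overlapping differences up to 15 per direction, leading members of each list, Start regulators, and up to 5 per direction in the other tests. The members and lists were chosen with earlier results of these data known. Neighbours come from the RefSeq R64 annotation, used for order only.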

Additional observations from a re-analysis of the deposited data

Results flagged for a closer look

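The strain difference itself moved with time for the following genes, by limma with Benjamini-Hochberg adjustment; the values are log2 and mutant minus wild type. Between the first hour and later times it changed by -2.72 for CLB2, -2.65 for CLB1, -2.57 for DSE2, -2.54 for FAR1, -2.48 for MFA2, -2.39 for DSE1, -1.95 for PHO84 and -1.45 for STR3. In the other direction it changed by 2.68 for HXT2, 2.51 for HSP42, 2.13 for EMI2, 2.08 for TSL1, 1.79 for HXK1, 1.76 for SRL1 and 1.63 for DIC1. Within the window, from the first to the second array of each culture 16 min later, it changed by 3.89 for MET17, 2.88 for MXR1, 2.70 for ARG1, 2.40 for MET14 and -3.17 for PHO84. Groups of 2 cultures are too small for a test of outlying cultures.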

How the results depend on the processing

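The count of 13 called genes became 6 without the grid term, 7 after quantile normalization, 25 with trend and robust eBayes, 21 with arrays taken as independent, 4 with the 30 and 38 min arrays only, and, in settings chosen after seeing the data, 0 without the 46 min arrays (444 at an unadjusted p under 0.05) and 4 without the 38 min arrays. Leaving out 1 culture gave 0 to 5. The 36 genes whose difference changed later became 9 without the grid term, 473 after quantile normalization, 156 after median centring, 23 with log2(value + 50), 10 above background, 59 with averaged probe sets, 469 with trend and robust eBayes, 0 with later times to 118 min (574 unadjusted), and 0 to 586 without 1 culture. The 5 genes of the 16 min change became 0 after quantile normalization (344 unadjusted), 8 after centring, 62 with trend and robust eBayes and 0 to 38 without 1 culture. The causes were not tested.

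With the replicate number of the labels as a block, in place of the sampling grid, the counts were 0 for the first hour (252 unadjusted), 0 for the change (731 unadjusted) and 7 for the 16 min change. Deviations of same-numbered cultures correlated at -0.222, and the crossed pairing, which is the sampling grid, gave the 13, 36 and 5 calls reported. Of 18 alternatives, CLB1, CLB3 and SNL1 kept their call in 14, YIL014C-A in 13, BAR1 in 12, GAL1 and GAL10 in 9, CLB4 in 8, PHO84 in 6, UBC13 in 5 and STR3 in 4, and ATG38 and QDR2 in 5 of 17. No called difference changed sign.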
